A study of Mus musculus with 18 samples.

Results

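Mouse embryonic stem cells (ESCs) were sampled on days 0, 4 and 6 (d0, d4 and d6) of neural differentiation (ND). Of the 10965 genes in the deposited table, 152 (1.39%) met a rule for a peak on d4 in control cells. These genes had a mean log2(TPM + 1) in control that was at least 1 higher at d4 than at d0 and at least 1 lower at d6 than at d4, where TPM is an expression level scaled for gene length and library size. The control cells (Ctrl) were CD1 ESCs with loxP-flanked Zeb2 (Zeb2 fl/fl), and the compared cells (KO) were CD1 ESCs without Zeb2 (Zeb2 -/-). Both genotypes were kept in 2i + LIF at d0, formed embryoid bodies in medium with 15% serum until d4, and then received N2B27 with 500 nM retinoic acid until d6. Each of the 6 groups had 3 libraries. The methods describe them as independent experiments, but the labels do not tie them to separate cultures, and p-values measure the spread between these libraries. By the methods, KO lines of the CD1 strain came from Zeb2 fl/fl ESCs into which a Cre vector was introduced. Which KO line was sequenced is not given in the sources used here. Embryoid bodies hold several cell types, and in bulk RNA fewer cells of a type and less RNA per cell cannot be told apart.

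Ground-state ESCs are held by inhibitors of MEK and GSK3 together with LIF, and on release they pass through formative and primed epiblast states before they take up a lineage. FGF-ERK signalling rises on release and induces its own inhibitors, the Sprouty and DUSP proteins, and Nodal signalling induces its inhibitors, the Lefty proteins. Zeb2 is a zinc finger and homeodomain repressor that binds E-boxes of the type CACCTG and is needed for neural differentiation.

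Zeb2 itself was at 0.123 to 0.138 TPM in Ctrl at d0, 1.23 to 1.47 at d4 and 7.53 to 7.81 at d6, and at 0.0171 to 0.0274, 0.126 to 0.204 and 0.594 to 0.733 TPM in KO. The libraries held 9622622 to 15617675 reads on these genes (median 12131165). The summed TPM of the 8 ground-state ESC markers was lower on each later day in both genotypes, going from 3662 to 3822 at d0 over 1592 to 2002 at d4 to 331 to 419 at d6 in Ctrl, and from 3656 to 3861 over 1727 to 2060 to 599.9 to 655 in KO. Neural progenitor markers (7 of 7 measured) summed to 37.6 to 47.4 TPM at d0, 206 to 255 at d4 and 339 to 388 at d6 in Ctrl, and to 34.3 to 36.05, 102 to 119 and 65.5 to 78.5 in KO, so that the d6 ranges of the genotypes do not overlap. Of other cell types, 6 of 8 trophectoderm markers in the table summed to 91.6 to 105, 173 to 194 and 1069 to 1651 TPM in Ctrl and to 59.5 to 66.5, 172 to 200.1 and 1039 to 2044 in KO. These markers did not move together. The mean TPM of Tfap2c fell, from 82.1 over 75.1 to 16.9 in Ctrl and from 50.9 over 24.7 to 9.09 in KO. Gata3 and Hand1 reached only 6.95 and 7.66 in Ctrl d6 and 3.32 and 4.02 in KO d6. The d6 sums thus came mostly from the other markers, the keratin genes among them, and are not a measure of trophectoderm cells. Endothelial markers (2 of 5) ran from 45.6 to 48.7 over 16.5 to 19.9 to 8.39 to 9.17 in Ctrl and from 40.7 to 43.5 over 23.4 to 26.2 to 11.2 to 18.7 in KO, and fibroblast markers (4 of 6) from 3.44 to 4.95 over 12.02 to 14.2 to 32.01 to 40.96 and from 1.48 to 3.25 over 12.2 to 17.5 to 33.8 to 45.9. The endothelial sum mostly followed Pecam1, with a mean of 37.8 TPM in Ctrl d0 and 38.0 in KO d0, and is not a measure of endothelial cells. Markers that are not in the table did not enter the sums. None of these sums peaked at d4 in Ctrl, and their part in the results was not tested.

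One feature of the libraries bears on the choice of members. Chromosomes 6, 8 and 12 held 54 of the 152 members (35.5%) but 15.2% of the genes in the table, so that 3.24% of the genes there were members against 1.05% elsewhere. The median gene of these chromosomes shifted with the day: its change in Ctrl was 0.67 from d0 to d4 and -0.38 from d4 to d6 on the log2(TPM + 1) scale, against 0.18 and 0.09 for the median of the other genes. In KO the medians were 0.16 and -0.33 there, and 0.15 and 0.08 elsewhere. Relative to the other autosomes, the median gene of chromosome 8 lay 0.26 to 0.27 above its mean over the 18 libraries in Ctrl d4, 0.22 to 0.25 above it in KO d0, and 0.23 to 0.25 above it in KO d4. In the other 3 groups it lay between -0.28 and -0.20. The same 3 groups were high and low for chromosome 12 (0.19 to 0.29 and -0.28 to -0.21) and, less, for chromosome 6 (0.05 to 0.24 and -0.19 to -0.11). This shift follows the genotype and day groups, so for members of chromosomes 6, 8 and 12 it cannot be told apart from a change of the single gene. Whether the groups differ in ways beyond genotype and day that reach members elsewhere was not tested. After the median of each of these chromosomes was removed from each library, 113 genes met the rule, all of them among the 152, with 15 on chromosomes 6, 8 and 12. Chromosome 11, with 935 genes, held 0 members.

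**Figure D1:**
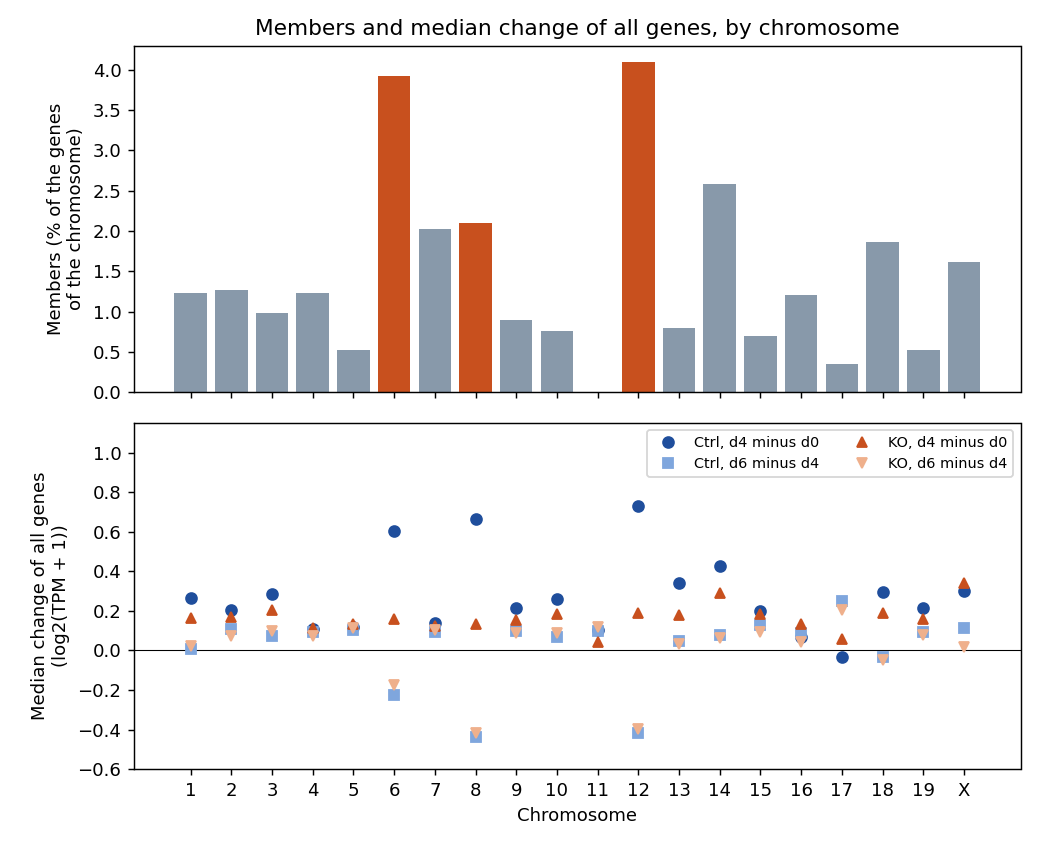
Top, members as a percent of the genes of each chromosome in the table, with chromosomes 6, 8 and 12 in orange. Bottom, the median change of all genes of each chromosome between days in Ctrl and KO on the log2(TPM + 1) scale (n = 3 libraries per group). The medians of chromosomes 6, 8 and 12 share a rise to d4 in Ctrl and a fall after d4 in both genotypes.

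The Ctrl libraries chose the members, so their values in Ctrl are a description. The median rise from d0 to d4 was 1.92 (range 1.004 to 5.83) and the median fall from d4 to d6 was -1.34 (range -3.33 to -1.003), against 0.26 and 0.04 over all genes. Levels at d6 varied: the mean lay within 1 of the d0 mean for 97 members, at least 1 above it for 53 and at least 1 below it for 2. All Ctrl d4 libraries were above all Ctrl d0 and d6 libraries for 150 members. The median of the members' mean TPM rose and fell with this choice, with 3.95 for d0, 24.1 for d4 and 7.61 for d6. Of the 152, 137 are protein-coding, 9 are pseudogenes, 3 are lincRNAs, 2 are antisense RNAs and 1 is a processed transcript. The authors kept genes with at least 5 TPM in 3 or more samples, and 18 members reached that only through the Ctrl d4 libraries.

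The choice was repeated without 1 replicate number of each Ctrl day, and the steps were read in the libraries left out. This shows how far the choice rests on single libraries. The left-out libraries belong to the same groups, so it cannot show a difference shared by all libraries of a group. Without replicate 1, 2 or 3, the rule took 169, 165 or 158 genes, of which 160, 162 or 153 moved up and then down in the left-out libraries and 108, 106 or 108 did so by at least 1 at both steps. At the threshold for the rise, Nlrp9b (1.004), Anxa11 (1.01) and Phc1 (1.02) lay just inside, and Pianp (0.98), Pirt (0.97) and Gm15513 (0.96) just outside. For the fall, Rltpr (-1.003), Snai3 (-1.005) and Usp17le (-1.005) lay just inside, and Fancd2 (-0.999), Kcnk1 (-0.997) and 2610037D02Rik (-0.99) just outside.

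**Figure D2:**
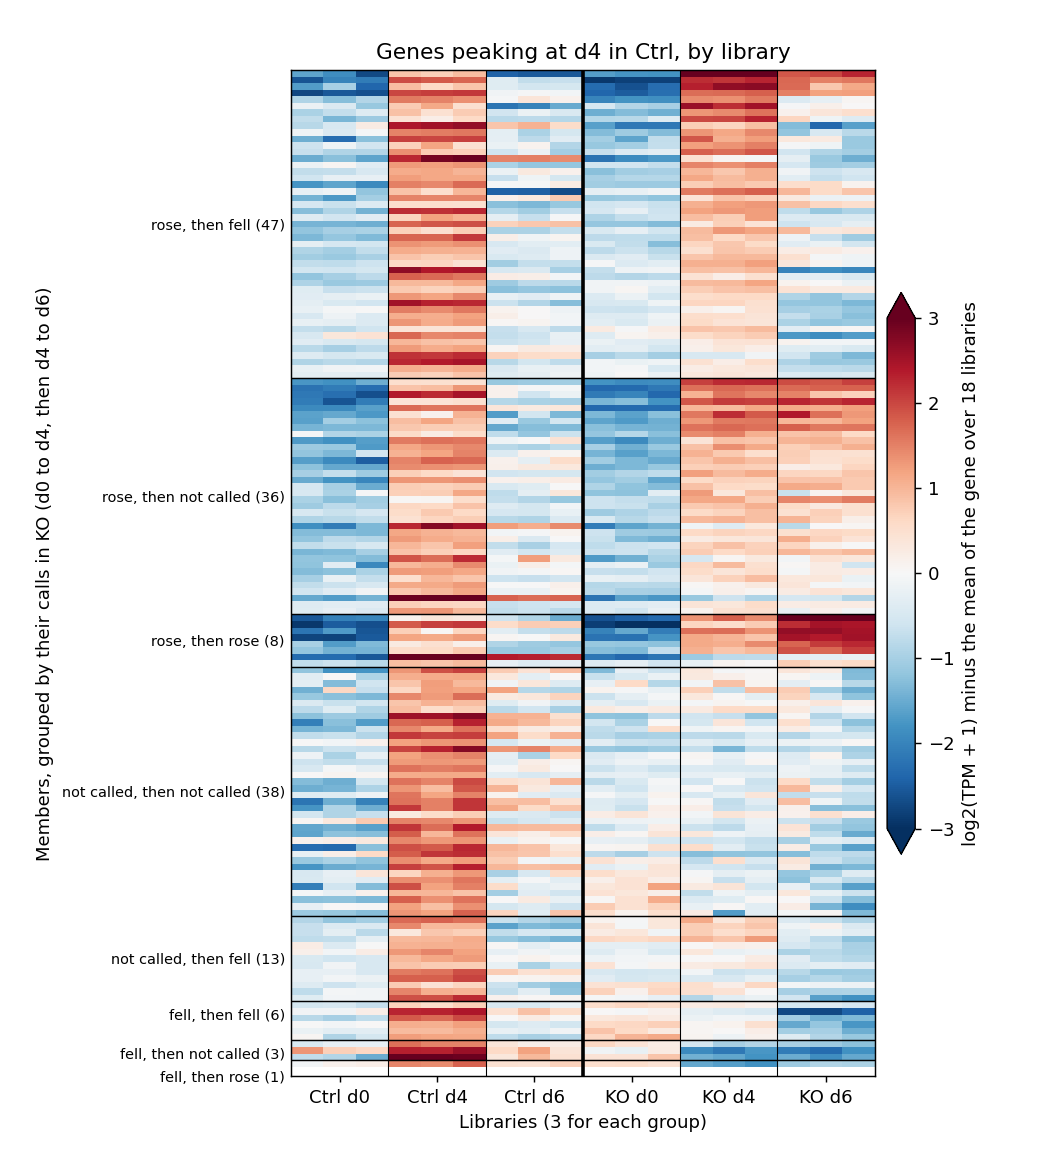
Each row is 1 of the 152 members and each column 1 of 18 libraries, with colour for log2(TPM + 1) minus the mean of the gene over all libraries. Rows are grouped by the calls between KO libraries, with the number of genes in parentheses. The band of high values in Ctrl d4 comes from the choice of genes. In KO d4 it is present for the upper groups and absent for the lower ones.

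Promoter sequence was available for 103 members, from windows of 300 bases (250 before to 50 after a RefSeq start) on GRCm38.p6. The letters CACCTG, read on both strands, occurred in a window of 34 of them (33.0%), against 1580 of 7221 genes of the table with a window (21.9%) and 6098 of 27025 genes of the reference table (22.6%). The share was 26.5% among members that rose and then fell in KO (9 of 34) and 31.6% among those with no called change in KO (6 of 19). A match is a description of the letters and not a binding site. The windows of 3 members that took different courses in KO are shown, with the motif, here read as its reverse complement CAGGTG, in capitals. Prdm1 rose and then fell in KO, Pdlim3 rose at both steps, and Dsp fell and then rose.
Prdm1, chr10:44458699-44458998, minus strand: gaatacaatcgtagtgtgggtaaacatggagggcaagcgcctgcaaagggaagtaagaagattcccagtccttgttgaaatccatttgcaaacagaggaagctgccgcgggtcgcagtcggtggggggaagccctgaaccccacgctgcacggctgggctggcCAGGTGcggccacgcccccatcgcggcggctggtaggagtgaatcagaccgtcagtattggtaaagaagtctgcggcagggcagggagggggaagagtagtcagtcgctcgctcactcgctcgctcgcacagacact
Pdlim3, chr8:45885237-45885536, plus strand: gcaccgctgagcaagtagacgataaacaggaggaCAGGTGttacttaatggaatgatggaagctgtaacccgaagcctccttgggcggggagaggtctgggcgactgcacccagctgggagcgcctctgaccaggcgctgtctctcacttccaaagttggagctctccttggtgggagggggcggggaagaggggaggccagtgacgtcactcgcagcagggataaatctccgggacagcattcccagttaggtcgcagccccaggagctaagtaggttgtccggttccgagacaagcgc
Dsp, chr13:38151044-38151343, plus strand: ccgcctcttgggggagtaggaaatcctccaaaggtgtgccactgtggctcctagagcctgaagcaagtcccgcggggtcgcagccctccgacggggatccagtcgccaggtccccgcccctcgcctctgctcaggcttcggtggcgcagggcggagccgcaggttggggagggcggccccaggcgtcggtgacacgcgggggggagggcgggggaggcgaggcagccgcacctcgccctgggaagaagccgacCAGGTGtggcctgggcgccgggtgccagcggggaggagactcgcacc

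The question for KO cells, which played no part in the choice, was whether the same genes rise and fall in them. Many members rose in KO by d4, fewer fell again by d6, and others did neither. Tested between KO libraries with limma, where a call needs an adjusted p (Benjamini-Hochberg, 10965 genes) below 0.01, 91 members (59.9%) rose from d0 to d4 and 10 (6.58%) fell, where 35.8% and 20.9% of all genes did. From d4 to d6, 66 members (43.4%) fell and 9 (5.92%) rose, against 19.9% and 21.5% of all genes. The 2 steps together gave 47 members (30.9%) that rose and then fell, against 6.23% of all genes. A further 36 (23.7%) rose with no called change after d4 (all genes 19.0%), 8 (5.26%) rose at both steps (all genes 10.6%), and 38 (25.0%) had no call at either step (all genes 27.7%). Of the rest, 13 (8.55%) fell only after d4 (all genes 8.20%) and 6 (3.95%) fell at both steps (all genes 5.50%). A further 3 (1.97%) fell only before d4 (all genes 11.9%) and 1 (0.658%), Dsp, fell and then rose (all genes 3.43%).

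The size of the KO steps varied widely. The members' median change in KO was 0.95 from d0 to d4 and -0.51 from d4 to d6, and 0.15 and 0.03 over all genes. The first median was 1.13 with voom. It was 1.07 for the 134 members that reached 5 TPM in 3 libraries other than Ctrl d4, a filter that can be passed through high KO libraries. A rise of at least 1 by d4 was seen for 70 members (15.2% of all genes). Within KO the highest group mean was at d4 for 92 members, at d6 for 30 and at d0 for 30, a count not made for all genes. The same thresholds applied to the KO libraries took 54 genes (0.492%), and 22 were shared, which is 14.5% of the members and 40.7% of the KO genes. Outside chromosomes 6, 8 and 12 the counts ran alike among 98 members: 58 (59.2%) rose and 7 (7.14%) fell by d4 (35.5% and 21.3% of genes outside these chromosomes). After d4, 37 (37.8%) fell and 8 (8.16%) rose (15.0% and 23.8%), and 28 (28.6%) rose and then fell (4.43%). On chromosomes 6, 8 and 12, 29 of 54 members (53.7%) fell after d4. Falls were also common among all genes there: 2185 of 10965 genes fell in the whole table, and only 1393 of these were among the 9297 genes outside these chromosomes. The 53.7% is therefore not to be set against the 19.9% or 15.0% of the wider sets. The median of all genes there also fell (-0.33), and the falls of these members cannot be told apart from that shift. With the chromosome medians removed, 91 of the 152 rose, 52 fell after d4 and 40 did both, and 15 rather than 9 rose after d4. The shares of all genes were not counted under this setting, so these counts have no background beside them.

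**Figure D3:**
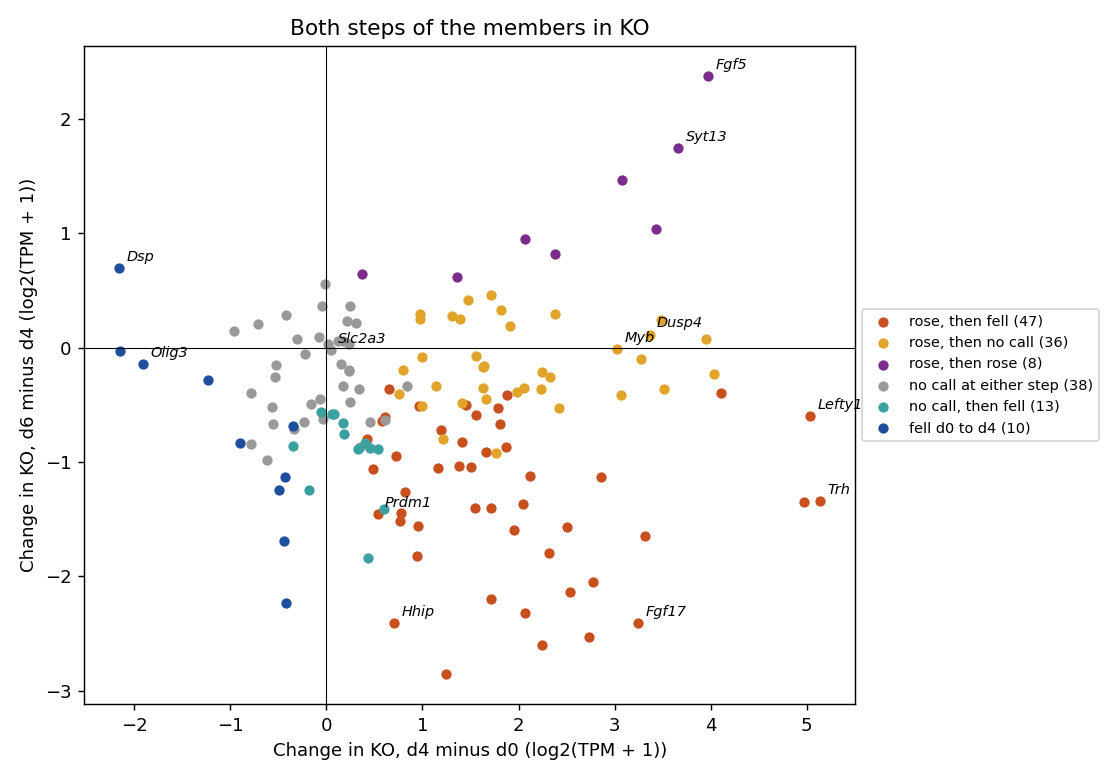
Each point is 1 of the 152 members, with its change in KO from d0 to d4 on the horizontal axis and from d4 to d6 on the vertical axis, both in log2(TPM + 1) (n = 3 libraries per group), coloured by calls at adjusted p below 0.01. The lower right holds the 47 members that rose and then fell, and the 8 at the upper right rose at both steps.

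Inhibitors of the FGF-ERK pathway formed one group of members. The list of FGF-ERK feedback genes had 13 of its 15 genes in the table, and 4 of them were members: Spry4, Spry2, Dusp4 and Il17rd. In KO all 13 rose from d0 to d4 (35.8% of all genes), with a median of 1.62, and from d4 to d6 4 rose and 3 fell (21.5% and 19.9% of all genes). For Spry4, an intracellular inhibitor of receptor tyrosine kinase signalling, TPM was 0.677, 0.558 and 0.207 in Ctrl at d0, 37.5, 33.99 and 40.5 at d4 and 7.12, 3.96 and 5.57 at d6. It was 0.714, 0.882 and 0.460 in KO at d0, 14.3, 21.6 and 19.4 at d4 and 19.8, 12.4 and 10.97 at d6. The gene was thus higher at d4 than at d0 in both genotypes, and at d6 all KO libraries were above all Ctrl libraries. The KO rise was 3.52 ± 0.22 (SE, n = 3 and 3, adjusted p = 8.17e-10), and the later difference of -0.36 ± 0.22 (SE, n = 3 and 3, adjusted p = 0.187) did not pass. It rested on 5 to 16 reads at d0 and 194 to 349 at d4.

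Dusp4, a phosphatase that inactivates ERK, had a like course. TPM was 26.7, 26.97 and 32.6 in Ctrl at d0, 338, 318 and 315 at d4 and 134, 125 and 131 at d6, and 19.6, 19.7 and 20.03 in KO at d0, 208, 201 and 232 at d4 and 228, 220.3 and 245 at d6. All KO d4 libraries were below all Ctrl d4 libraries, and at d6 the order was the reverse. The KO change was 3.37 ± 0.07 (SE, n = 3 and 3, adjusted p = 9.02e-15) to d4 and 0.11 ± 0.07 (SE, n = 3 and 3, adjusted p = 0.202) after it. Dusp4 lies on chromosome 8, and with the chromosome medians removed the second value became a called rise of 0.63 (adjusted p = 3.67e-06).

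Spry2 differed in that it was already high at d0. TPM was 126, 100.2 and 103 in Ctrl at d0, 279, 257 and 271 at d4 and 66.9, 72.3 and 67.9 at d6, and 149, 168 and 130.4 in KO at d0, 270.5, 295 and 304 at d4 and 218, 196 and 196 at d6. The genotypes overlapped at d4 and lay apart at d6, where KO kept more. In KO it rose by 0.96 ± 0.09 (SE, n = 3 and 3, adjusted p = 1.28e-07) and then fell, with a change of -0.51 ± 0.09 (SE, n = 3 and 3, adjusted p = 2.27e-04). Il17rd, a membrane protein that restrains FGF signalling, was at 28.5 to 32.4 TPM at d0, 91.97 to 99.4 at d4 and 38.7 to 42.8 at d6 in Ctrl and at 33.9 to 41.9 TPM at d0, 43.8 to 53.8 at d4 and 71.9 to 86.1 at d6 in KO. Its KO values climbed in 2 small steps of 0.37 ± 0.09 (SE, n = 3 and 3, adjusted p = 0.00221) and 0.64 ± 0.09 (SE, n = 3 and 3, adjusted p = 2.71e-05). The first step lost its call with median-ratio rescaling, in the fit to KO libraries alone and without KO d0 replicate 3 (0.29), KO d4 replicate 2 (0.31) or KO d4 replicate 3 (0.34).

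FGF ligands among the members took opposite courses after d4. For Fgf17, a ligand of the Fgf8 subfamily, TPM was 11.8, 9.77 and 5.63 in Ctrl at d0, 23.6, 30.9 and 19.2 at d4 and 2.199, 2.61 and 4.13 at d6. In KO it was 9.18, 6.91 and 6.26 at d0, 87.1, 66.8 and 82.1 at d4 and 13.1, 15.1 and 13.7 at d6. The peak was thus present in both genotypes and higher in KO. The KO steps were 3.24 ± 0.23 (SE, n = 3 and 3, adjusted p = 3.81e-09) and -2.41 ± 0.23 (SE, n = 3 and 3, adjusted p = 4.18e-07). Fgf5, the standard marker of the primed epiblast, was at 0.154, 0.642 and 0.715 TPM in Ctrl at d0, 6.18, 7.49 and 7.04 at d4 and 3.35, 2.58 and 1.404 at d6. It was at 0.0960, 0.230 and 0.340 in KO at d0, 16.1, 22.1 and 16.8 at d4 and 87.1, 94.9 and 115 at d6. Where Ctrl libraries came down after d4, every KO library at d6 was above every KO library at d4. The KO rises were 3.97 ± 0.21 (SE, n = 3 and 3, adjusted p = 9.58e-11) and 2.37 ± 0.21 (SE, n = 3 and 3, adjusted p = 1.35e-07), from 0 to 2 reads at d0 to 856 to 1190 at d6. Fgf1, named after its values were seen, rose by 1.54 ± 0.19 (SE, n = 3 and 3, adjusted p = 2.65e-06) and fell again with -1.41 ± 0.19 (SE, n = 3 and 3, adjusted p = 1.56e-05).

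Lefty1, a secreted inhibitor of Nodal, reached similar d4 levels with and without Zeb2. TPM was 19.95, 30.6 and 28.3 in Ctrl at d0, 489.6, 448 and 425 at d4 and 97.2, 74.8 and 77.1 at d6, and 16.1, 17.1 and 17.2 in KO at d0, 581, 554 and 611 at d4 and 415, 359 and 377 at d6. The 3 KO d4 libraries were above the 3 Ctrl d4 libraries, and at d6 the gap was wider. In KO the rise was 5.03 ± 0.12 (SE, n = 3 and 3, adjusted p = 3.73e-14) and the fall -0.60 ± 0.12 (SE, n = 3 and 3, adjusted p = 7.60e-04). Utf1, a chromatin-associated factor of pluripotent cells, continued upward in KO: it was at 112 to 183 TPM at d0, 403 to 505 at d4 and 160.4 to 193 at d6 in Ctrl and 153 to 165 TPM at d0, 771 to 964 at d4 and 1208 to 1731 at d6 in KO, with KO steps of 2.38 ± 0.16 (SE, n = 3 and 3, adjusted p = 1.25e-09) and 0.82 ± 0.16 (SE, n = 3 and 3, adjusted p = 3.55e-04). Fgf5, Lefty1 and Utf1 were the members among the 20 formative and primed epiblast genes, all of them in the table. Of these 20, 16 rose and 1 fell in KO by d4 (35.8% and 20.9% of all genes), and 7 rose and 4 fell from d4 to d6 (21.5% and 19.9%), with medians of 2.12 and 0.33 (all genes 0.15 and 0.03).

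Other secreted or extracellular members were highest at d4 in both genotypes, with KO steps of very different size. Tll1, a metalloprotease of the BMP1 family, ranked first by the smaller of its 2 Ctrl steps. TPM was 1.31, 2.02 and 1.09 in Ctrl at d0, 25.03, 24.8 and 26.1 at d4 and 2.11, 1.73 and 2.47 at d6, and 2.96, 3.77 and 2.64 in KO at d0, 11.97, 12.9 and 12.5 at d4 and 2.301, 1.57 and 1.95 at d6. The peak in KO was lower than in Ctrl in every library and ended below its d0 libraries. The KO steps were 1.71 ± 0.15 (SE, n = 3 and 3, adjusted p = 5.17e-08) and -2.201 ± 0.15 (SE, n = 3 and 3, adjusted p = 1.17e-08), on chromosome 8. Hhip, a membrane protein that binds and limits Hedgehog ligands and also on chromosome 8, was at 2.04 to 4.67 TPM at d0, 10.5 to 12.9 at d4 and 1.55 to 2.59 at d6 in Ctrl and 2.22 to 3.72 TPM at d0, 5.16 to 6.18 at d4 and 0.156 to 0.327 at d6 in KO. Its fall in KO was -2.41 ± 0.22 (SE, n = 3 and 3, adjusted p = 1.86e-07), to 2 to 5 reads per library. The preceding rise, 0.71 ± 0.22 (SE, n = 3 and 3, adjusted p = 0.00882), was near the threshold: it lost its call when any 1 of 12 libraries was left out (all but the Ctrl d0 libraries, Ctrl d6 replicates 1 and 3, and KO d0 replicate 3), the lowest value being 0.54 (adjusted p = 0.0544) without KO d0 replicate 1, and had an adjusted p of 0.502 with quantile normalization, 0.0273 with median-ratio rescaling and 0.0211 with a pseudocount of 0.1. Enpp3, an ectoenzyme that cleaves nucleotides, was at 6.704 to 7.78 TPM at d0, 205 to 223 at d4 and 46.6 to 48.8 at d6 in Ctrl and 8.03 to 9.62 TPM at d0, 162 to 176 at d4 and 118 to 145 at d6 in KO. It rose by 4.11 ± 0.08 (SE, n = 3 and 3, adjusted p = 7.89e-15) and fell little, with -0.40 ± 0.08 (SE, n = 3 and 3, adjusted p = 6.68e-04), and at d6 every KO library was above every Ctrl library.

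**Figure D4:**
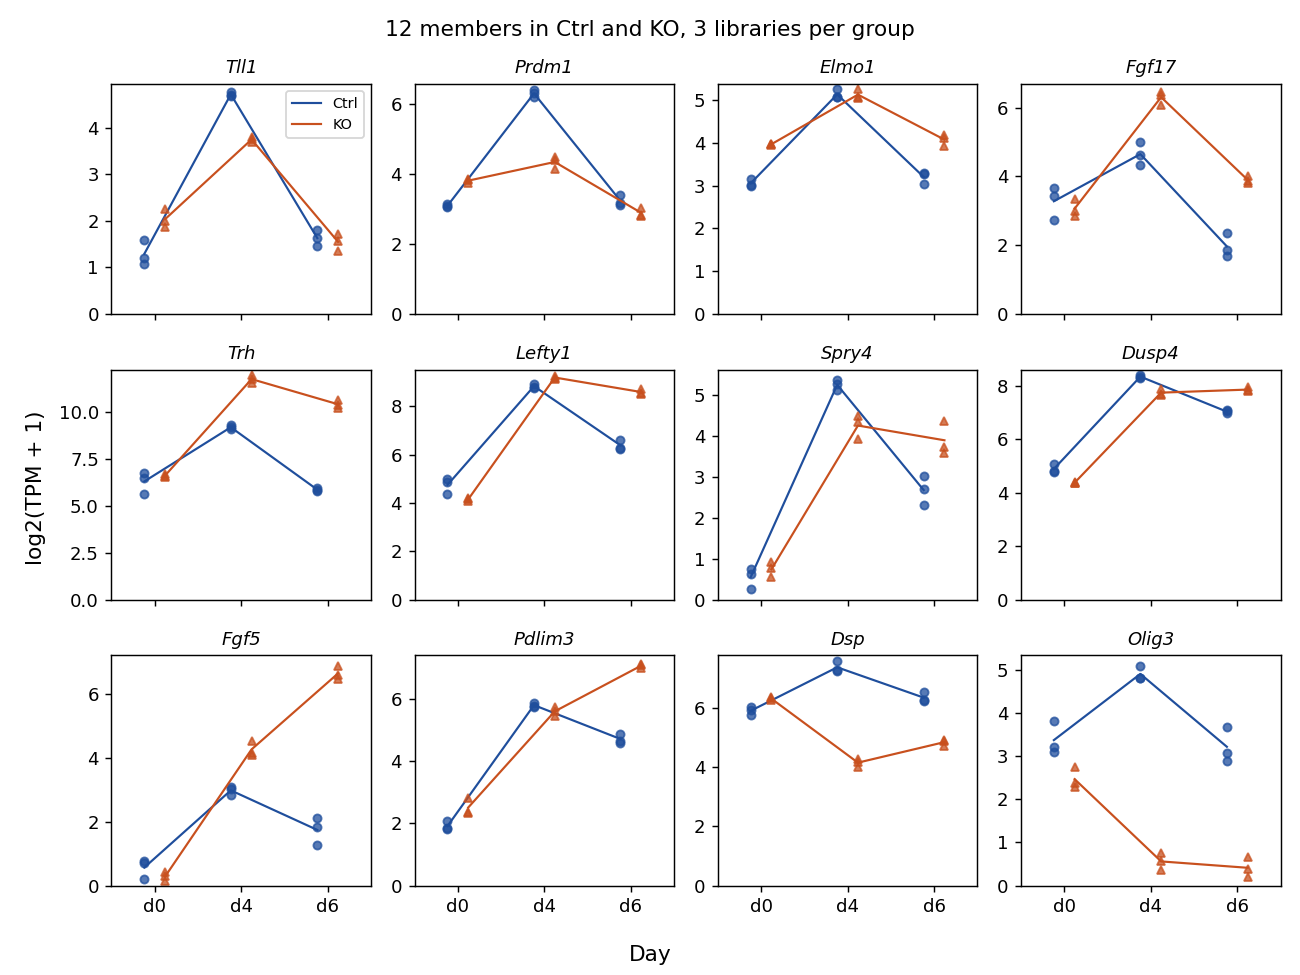
Each panel is 1 member, with log2(TPM + 1) on the vertical axis and the day on the horizontal axis. Blue circles are Ctrl and orange triangles KO libraries (3 per group), and lines join the group means. Ctrl peaks at d4 in every panel because the genes were chosen so. KO peaks with it for Tll1, Elmo1, Fgf17 and Trh, climbs on for Fgf5 and Pdlim3, and falls for Dsp and Olig3.

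Transcription factors among the members took several courses. For Prdm1, a zinc finger repressor needed for germ cells and the single member among the 9 primordial germ cell genes, TPM was 7.33, 7.89 and 7.46 in Ctrl at d0, 72.7, 79.3 and 84.2 at d4 and 7.703, 9.58 and 8.06 at d6. It was 13.6, 12.4 and 13.3 in KO at d0, 20.2, 16.9 and 21.4 at d4 and 7.11, 6.02 and 6.19 at d6. Every KO d4 library was below every Ctrl d4 library, while at d0 every KO library was above. The KO rise was only 0.53 ± 0.11 (SE, n = 3 and 3, adjusted p = 2.86e-04), lost its call with quantile normalization (0.28, adjusted p = 0.0399), and was followed by -1.46 ± 0.11 (SE, n = 3 and 3, adjusted p = 1.78e-08). Myb, a haematopoietic and progenitor factor, was at 3.499 to 3.69 TPM at d0, 18.9 to 19.8 at d4 and 3.11 to 3.92 at d6 in Ctrl and at 3.45 to 3.98 TPM at d0, 35.8 to 38.3 at d4 and 34.7 to 39.9 at d6 in KO. It rose by 3.03 ± 0.09 (SE, n = 3 and 3, adjusted p = 2.99e-13) and then stayed within its spread, with -0.01 ± 0.09 (SE, n = 3 and 3, adjusted p = 0.923).

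Olig3, a basic helix-loop-helix factor of the dorsal neural tube, ran the other way. TPM was 12.95, 8.19 and 7.58 in Ctrl at d0, 27.00, 26.99 and 32.9 at d4 and 7.43, 11.8 and 6.38 at d6, and 4.22, 3.84 and 5.67 in KO at d0, 0.494, 0.276 and 0.684 at d4 and 0.308, 0.140 and 0.586 at d6. The gene was below Ctrl in all KO libraries on each day, with 1 to 3 reads per library at d4 and 0 to 3 at d6. The change to d4 was -1.904 ± 0.22 (SE, n = 3 and 3, adjusted p = 1.37e-06), and the later one was -0.15 ± 0.22 (SE, n = 3 and 3, adjusted p = 0.612). Foxa1, a pioneer factor of endoderm and the single member among 14 visceral endoderm genes in the table, was at 0.695 to 1.16 TPM at d0, 23.7 to 38.7 at d4 and 12.7 to 13.6 at d6 in Ctrl and 0.0934 to 0.552 TPM at d0, 3.95 to 6.13 at d4 and 0.846 to 3.26 at d6 in KO. It rose by 2.12 ± 0.26 (SE, n = 3 and 3, adjusted p = 2.14e-06) and fell by d6 with -1.13 ± 0.26 (SE, n = 3 and 3, adjusted p = 0.00172). The fall was not called with the medians of chromosome 12 and the others removed (-0.61, adjusted p = 0.0558), with voom, in the fit to KO libraries alone, or without KO d4 replicate 1 (-0.97) or KO d6 replicate 3 (-0.87). Ripply1, a co-repressor known from somites, was at 1.402 to 3.905 TPM at d0, 46.4 to 47.7 at d4 and 5.77 to 8.69 at d6 in Ctrl and 2.93 to 6.07 TPM at d0, 23.4 to 41.98 at d4 and 4.43 to 13.6 at d6 in KO, with KO steps of 2.500 ± 0.35 (SE, n = 3 and 3, adjusted p = 9.99e-06) and -1.57 ± 0.35 (SE, n = 3 and 3, adjusted p = 0.00139).

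Several named members are best known from neurons and endocrine cells. Trh, which encodes the precursor of thyrotropin-releasing hormone, was the most abundant of them. TPM was 109, 89.3 and 48.97 in Ctrl at d0, 588, 541 and 627 at d4 and 60.6, 56.3 and 55.2 at d6, and 104, 95.1 and 93.04 in KO at d0, 2989, 3963 and 3506 at d4 and 1204, 1315 and 1611 at d6. The KO d4 libraries were above all others, and KO d6 libraries were above Ctrl d4. The KO rise of 5.14 ± 0.20 (SE, n = 3 and 3, adjusted p = 3.79e-12) was the largest of all members, and the fall was -1.34 ± 0.20 (SE, n = 3 and 3, adjusted p = 3.71e-05). Trh lies on chromosome 6, and both calls held with the chromosome medians removed. Pdyn, the prodynorphin gene, was at 0.178 to 0.374 TPM at d0, 2.64 to 4.69 at d4 and 0.0909 to 0.949 at d6 in Ctrl and 0.373 to 0.771 TPM at d0, 6.03 to 7.01 at d4 and 0.0938 to 0.493 at d6 in KO. It peaked in KO as in Ctrl, with 2.24 ± 0.22 (SE, n = 3 and 3, adjusted p = 1.51e-07) and -2.602 ± 0.22 (SE, n = 3 and 3, adjusted p = 8.87e-08), on 62 to 67 reads at d4 and 0 to 4 at d6.

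Gad2, an enzyme of GABA synthesis, was at 1.67 to 2.25 TPM at d0, 18.1 to 21.6 at d4 and 0.629 to 1.55 at d6 in Ctrl and 1.84 to 2.61 TPM at d0, 4.55 to 5.25 at d4 and 0.556 to 0.780 at d6 in KO. Its KO steps were 0.95 ± 0.16 (SE, n = 3 and 3, adjusted p = 7.62e-05) and -1.82 ± 0.16 (SE, n = 3 and 3, adjusted p = 1.64e-07), and the first lost its call with quantile normalization (0.31, adjusted p = 0.103). Syt13, a synaptotagmin, was at 34.1, 39.5 and 41.7 TPM in Ctrl at d4 and 13.4, 15.6 and 15.1 at d6, and in KO at 14.3, 13.2 and 15.5 and 44.5, 54.3 and 52.6. Every Ctrl library was lower at d6 than at d4 and every KO library higher. The KO steps were 3.66 ± 0.14 (SE, n = 3 and 3, adjusted p = 2.43e-12) and 1.75 ± 0.14 (SE, n = 3 and 3, adjusted p = 4.28e-08). Pdzd4, a PDZ-domain protein, rose in KO by 4.04 ± 0.08 (SE, n = 3 and 3, adjusted p = 7.89e-15) to 196 to 226 TPM, against 63.99 to 66.2 in Ctrl d4, and was at 171 to 197 at d6.

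A pair of neighbours on chromosome 7 fell in KO where they peaked in Ctrl. Ap3b2, a subunit of the neuronal AP-3 adaptor (chr7:81460399-81493925, GRCm38, GENCODE M21), and BC048679 (chr7:81494275-81498281) lie next to each other on the minus strand. For Ap3b2, TPM was 17.7, 20.5 and 20.5 in Ctrl at d0, 79.01, 71.4 and 70.5 at d4 and 32.1, 27.7 and 29.5 at d6, and 38.2, 33.1 and 28.9 in KO at d0, 16.6, 11.8 and 12.9 at d4 and 12.1, 11.01 and 9.92 at d6. BC048679 was at 1.91, 1.63 and 0.725 TPM in Ctrl at d0, 52.3, 37.3 and 36.1 at d4 and 5.09, 8.51 and 5.65 at d6. In KO it was 5.45, 5.44 and 7.65, then 0.771, 0.648 and 0.400, then 0.721, 0.328 and 0.686. Both lay above Ctrl in KO at d0 and below it at d4 and d6 in every library. The change to d4 was -1.23 ± 0.12 (SE, n = 3 and 3, adjusted p = 2.00e-07) for Ap3b2 and -2.15 ± 0.22 (SE, n = 3 and 3, adjusted p = 3.35e-07) for BC048679, the second down to 0 to 1 reads per library. Neither passed the test after d4, with -0.29 and -0.03. With quantile normalization Ap3b2 had a called fall there (-0.45, adjusted p = 0.00615).

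Adhesion and cytoskeletal genes moved in both directions. Dsp, the desmosomal plakin desmoplakin, gave the largest called fall by d4. TPM was 52.5, 60.4 and 63.5 in Ctrl at d0, 155, 149 and 191 at d4 and 75.8, 74.8 and 90.7 at d6, and 78.7, 80.5 and 75.1 in KO at d0, 18.4, 16.9 and 15.1 at d4 and 25.5, 29.3 and 28.4 at d6. The genotypes were close at d0, with KO above Ctrl, and far apart at d4, with KO below. The KO steps were -2.16 ± 0.11 (SE, n = 3 and 3, adjusted p = 4.73e-11) and 0.69 ± 0.11 (SE, n = 3 and 3, adjusted p = 4.50e-05), opposite in both to Ctrl. Pdlim3, an actin-associated PDZ and LIM protein on chromosome 8, rose at both steps. TPM was 2.57, 2.52 and 3.21 in Ctrl at d0, 53.4, 52.1 and 57.3 at d4 and 23.98, 23.04 and 28.3 at d6, and 4.15, 4.07 and 6.02 in KO at d0, 52.1, 47.5 and 42.1 at d4 and 134, 124 and 138 at d6. Its highest KO d4 library was close to its lowest Ctrl d4 library, and its KO d6 libraries were above all others. The steps were 3.08 ± 0.12 (SE, n = 3 and 3, adjusted p = 5.71e-12) and 1.47 ± 0.12 (SE, n = 3 and 3, adjusted p = 1.03e-07). Cdh9, a type II cadherin, also rose at both, from 1 to 6 reads at d0 to 95 to 120 at d6, with 2.06 ± 0.17 (SE, n = 3 and 3, adjusted p = 1.78e-08) and 0.95 ± 0.17 (SE, n = 3 and 3, adjusted p = 1.80e-04). The second step had an adjusted p of 0.0300 with a pseudocount of 0.1.

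Elmo1, an activator of Rac signalling through DOCK proteins, had nearly the same d4 level in both genotypes. TPM was 7.96, 6.92 and 7.03 in Ctrl at d0, 32.4, 32.6 and 37.2 at d4 and 7.18, 8.81 and 8.66 at d6, and 14.7, 14.7 and 14.4 in KO at d0, 31.8, 32.6 and 37.5 at d4 and 17.2, 16.2 and 14.2 at d6. The d4 libraries overlapped, and KO was above Ctrl at d0 and d6. Its KO steps were 1.16 ± 0.10 (SE, n = 3 and 3, adjusted p = 4.86e-08) and -1.05 ± 0.10 (SE, n = 3 and 3, adjusted p = 4.40e-07). Prex2, a Rac exchange factor, was at 4.03 to 4.48 TPM at d0, 11.1 to 12.2 at d4 and 4.03 to 4.83 at d6 in Ctrl and 6.599 to 10.4 TPM at d0, 5.31 to 6.16 at d4 and 1.29 to 2.15 at d6 in KO and fell at both steps, with -0.49 ± 0.15 (SE, n = 3 and 3, adjusted p = 0.00856) and -1.24 ± 0.15 (SE, n = 3 and 3, adjusted p = 4.50e-06). The first fall lost its call when any 1 of 14 libraries was left out (all but KO d0 replicate 3 and the KO d6 libraries), with adjusted p between 0.0101 and 0.0590. It was also lost in the fit to KO libraries alone (adjusted p = 0.0424) and with a pseudocount of 0.1 (0.0186). Slc2a3, a neuronal and embryonic glucose transporter on chromosome 6 and the single member among 20 hypoxia and glycolysis genes in the table, differed little between KO days. TPM was 601, 634 and 619.8 in Ctrl at d0, 1306, 1313 and 1329.7 at d4 and 481, 426 and 496 at d6, and 501, 502 and 463 in KO at d0, 503, 517 and 491 at d4 and 528, 505 and 461 at d6. Only the Ctrl d4 libraries stood out. The KO differences of 0.04 ± 0.06 (SE, n = 3 and 3, adjusted p = 0.550) and -0.02 ± 0.06 (SE, n = 3 and 3, adjusted p = 0.818) did not pass, and the second was a called rise of 0.29 (adjusted p = 0.00123) with the chromosome medians removed.

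The remaining named members were noncoding RNAs, enzymes and genes of little known function. Halr1, a long noncoding RNA beside the Hoxa cluster, was at 27.1, 33.05 and 33.2 TPM in Ctrl at d0, 135, 137 and 169.8 at d4 and 38.9, 36.2 and 37.3 at d6, and in KO at 29.6 to 34.6 TPM at d0, 18.8 to 30.4 at d4 and 9.35 to 23.5 at d6. KO had no d4 peak, with -0.35 ± 0.24 (SE, n = 3 and 3, adjusted p = 0.214). The later fall of -0.86 ± 0.24 (SE, n = 3 and 3, adjusted p = 0.00636) was not called with the chromosome medians removed (-0.56, adjusted p = 0.0609), with voom, in the fit to KO libraries alone, or without KO d4 replicate 2 (-0.79), KO d4 replicate 3 (-0.73), KO d6 replicate 2 (-0.72) or KO d6 replicate 3 (-0.62). Platr22, a noncoding RNA known from pluripotent cells, rose at both KO steps, with 3.43 ± 0.22 (SE, n = 3 and 3, adjusted p = 1.15e-09) and 1.03 ± 0.22 (SE, n = 3 and 3, adjusted p = 0.00102), to 59.1 to 65.3 TPM. BC064078 on chromosome 6 peaked in both, at 60.5 to 74.4 TPM in Ctrl d4 and 20.5 to 22.3 in KO d4, and its fall in KO was the largest of all members, -2.86 ± 0.16 (SE, n = 3 and 3, adjusted p = 1.50e-09) after a rise of 1.24 ± 0.16 (SE, n = 3 and 3, adjusted p = 3.70e-06).

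Prmt8, a membrane-bound arginine methyltransferase of the brain on chromosome 6, was at 0.775 to 1.53 TPM at d0, 11.2 to 13.7 at d4 and 0.526 to 2.197 at d6 in KO, with steps of 2.73 ± 0.27 (SE, n = 3 and 3, adjusted p = 1.63e-07) and -2.53 ± 0.27 (SE, n = 3 and 3, adjusted p = 1.06e-06). Zmat4, a zinc finger gene on chromosome 8, was at 2.34 to 2.67 TPM at d0, 13.2 to 14.6 at d4 and 1.604 to 2.86 at d6, with 2.07 ± 0.15 (SE, n = 3 and 3, adjusted p = 3.93e-09) and -2.32 ± 0.15 (SE, n = 3 and 3, adjusted p = 5.66e-09). Both thus kept the Ctrl order of days in KO. Kctd12b and Mtap7d3, both X-linked, reached 6.81 to 10.2 and 51.6 to 67.2 TPM in KO d4. Their rises were 2.32 ± 0.18 (SE, n = 3 and 3, adjusted p = 1.25e-08) and 4.97 ± 0.27 (SE, n = 3 and 3, adjusted p = 1.41e-10), and Mtap7d3 then fell with -1.35 ± 0.27 (SE, n = 3 and 3, adjusted p = 5.22e-04). Cyp2b23, a cytochrome P450 gene, had a KO difference from d0 to d4 of 0.60 ± 0.19 (SE, n = 3 and 3, adjusted p = 0.0119), short of the threshold. It then fell with -1.41 ± 0.19 (SE, n = 3 and 3, adjusted p = 1.57e-05). The first change was a called rise with a pseudocount of 5 (adjusted p = 0.00674), with eBayes without trend (0.00811) and without KO d4 replicate 2 (0.80, adjusted p = 0.00176). Samd9l, a gene of the interferon response on chromosome 6, fell at both steps in KO, with -0.90 ± 0.22 (SE, n = 3 and 3, adjusted p = 0.00197) and -0.83 ± 0.22 (SE, n = 3 and 3, adjusted p = 0.00477). The first of these was not called without KO d0 replicate 3 (-0.79) or KO d4 replicate 2 (-0.80), and the second not with the chromosome medians removed (-0.53, adjusted p = 0.0559), in the fit to KO libraries alone, or without KO d4 replicate 1 (-0.80), KO d4 replicate 3 (-0.78), KO d6 replicate 2 (-0.79) or KO d6 replicate 3 (-0.66).

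The lineage and pathway lists beyond those named held 0 members. Their counts stand beside 35.8% of all genes that rose and 20.9% that fell by d4, and 21.5% and 19.9% after it. Among 10 primitive streak and mesendoderm genes in the table, 1 rose and 4 fell in KO by d4, and 6 rose and 0 fell afterwards. The 10 paraxial mesoderm genes gave 6 and 1, then 5 and 0, and the 8 heart, vessel and blood genes gave 3 and 1, then 1 and 3. For the 20 serum response genes the counts were 11 and 5, then 17 and 0. The 10 BMP-SMAD targets gave 3 and 2, then 7 and 2, and the 10 Wnt targets 4 and 5, then 6 and 1. The 18 extracellular matrix genes gave 8 and 6, then 11 and 3, and the 11 neural crest genes 2 and 3, then 4 and 1. Of the lists with a single member, the 14 visceral endoderm genes gave 7 and 0, then 11 and 1, the 20 hypoxia and glycolysis genes 9 and 1, then 9 and 1, and the 9 germ cell genes 3 and 5, then 1 and 5.

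Some members outside the naming rule are given because of their size or family, chosen after their values were seen. Stra6, a membrane receptor for retinol uptake, had the largest Ctrl rise (5.83). TPM was 0.337, 0.339 and 0.137 in Ctrl at d0, 59.6, 70.9 and 84.99 at d4 and 33.8, 32.7 and 30.6 at d6, and 0.484, 0.310 and 0.458 in KO at d0, 2.12, 2.88 and 2.96 at d4 and 4.47, 4.44 and 4.84 at d6. All KO libraries at d4 and d6 were far below Ctrl, and the KO steps were 1.36 ± 0.14 (SE, n = 3 and 3, adjusted p = 2.25e-07) and 0.62 ± 0.14 (SE, n = 3 and 3, adjusted p = 0.00124). Ret, a receptor tyrosine kinase gene on chromosome 6, went from 0.816 to 1.17 to 43.99 to 62.9 TPM in Ctrl by d4 and from 0.244 to 0.878 to 1.62 to 2.79 in KO, with a KO change of 0.97 ± 0.18 (SE, n = 3 and 3, adjusted p = 1.77e-04). Hoxa7 and Hoxd9, at 8.15 to 10.9 and 14.9 to 17.6 TPM in Ctrl d4, were at 0.985 to 1.96 and 2.78 to 5.37 in KO d4, with no called change from KO d0.

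Zscan4b, Zscan4c, Zscan4d and Zscan4e, near-identical genes that mark a transient 2-cell-like state, were all members. Zscan4d was at 3.602, 3.97 and 3.36 TPM in Ctrl at d0, 59.3, 42.3 and 69.03 at d4 and 25.8, 25.3 and 24.9 at d6, and in KO at 6.98, 9.17 and 14.4, then 7.72, 6.88 and 10.5, then 16.98, 5.597 and 4.94. None of these 4 genes had a called change between KO days, and KO d6 replicate 1 was the highest KO d6 library for each. Their reads can be shared between the copies, so the level of a single copy is uncertain. The same holds for the predicted and Usp17-like members Gm2016, Gm2022, Gm2075, Gm5662, Gm8300, Gm12794, Gm13083, Gm13119 and Usp17le.

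Side by side, the genotypes are given as values without a test, because the Ctrl libraries chose the genes. Genes chosen for high Ctrl d4 and lower Ctrl d0 and d6 values tend to have KO below Ctrl at d4. By the same choice they tend to have KO above Ctrl at d0 and d6, so the pattern across days is partly built in. The members' median KO minus Ctrl difference lay at 0.21 (d0), -0.82 (d4) and -0.09 (d6), against -0.07, -0.16 and -0.14 over all genes. At d4 all KO libraries were below all Ctrl libraries for 101 members (66.4%, all genes 45.7%) and above for 28 (18.4%, all genes 20.0%). At d0 57 members were wholly above (37.5%, all genes 19.9%) and 27 below (17.8%, all genes 31.5%), and at d6 58 were above (38.2%, all genes 22.7%) and 47 below (30.9%, all genes 41.1%). The lowest d4 differences were -4.73 for BC048679, -4.34 for Olig3 and -4.31 for Stra6, and the highest was 2.57 for Trh. The highest of the 6 group means was Ctrl d4 for 114 members, KO d4 for 27 and KO d6 for 11. Outside chromosomes 6, 8 and 12 the median differences were 0.20, -0.90 and -0.05. Among the 134 members that reached 5 TPM in 3 libraries other than Ctrl d4 they were 0.23, -0.72 and 0.11, so that the sign at d6 turned. Of these, 84 (62.7%) were wholly below Ctrl at d4. Members can pass this filter through KO libraries, so higher KO minus Ctrl differences are partly built into it.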

How the data were processed

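RNA was sequenced as single reads of 36 bp from the 18 libraries. The authors aligned the reads to GRCm38 with TopHat2 2.0.13, counted reads per gene with featureCounts 1.4.6 and deposited TPM values. These hold 1 added read for each gene, so that a gene without reads has a TPM above 0. Their filters asked for 5 TPM in at least 3 samples and dropped the least variable genes. The deposited table also has 3 score columns on the variability of each gene, which were not used. Where an identifier was repeated, the first entry was kept.

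Values of log2(TPM + 1) were fitted in limma (version 3.58.1, R 4.3.3), using lmFit with 1 mean per group, contrasts.fit and eBayes with trend. A call is an adjusted p below 0.01, adjusted after Benjamini and Hochberg for 10965 genes. Only contrasts between KO libraries were tested, since the Ctrl libraries chose the members. A fold change on this scale understates the change of low genes. The study names a count model, but the deposited values are TPM. Reads were recovered as whole numbers (tolerance 1e-06) for all 10965 genes, and served for depth and for voom. The steps were tested on simulated data. Python 3.11.15, numpy 2.4.6, pandas 2.3.3 and matplotlib 3.10.9 were used.

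The members and the 13 gene lists were chosen with earlier results of these data known. The 38 members named are the 15 with the largest smaller step in Ctrl, up to 6 with the largest called change in each direction at each KO step, and every member of a list. Positions are from GENCODE M21 (151 of 152 members). Promoters are from RefSeq, and a gene with several windows was counted if 1 of them held the motif. The alternatives were pseudocounts of 0.1 and 5, a mean TPM of at least 10, a replicate block, a fit to the 9 KO libraries, voom, eBayes without trend, median-ratio rescaling, quantile normalization, steps of 0.5 and 2, the last entry of repeated identifiers and leaving out each library. Removal of chromosome medians, members outside chromosomes 6, 8 and 12, members that passed the filter without Ctrl d4, and the choice without a Ctrl replicate were added after seeing the data.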

Additional observations from a re-analysis of the deposited data

Results flagged for a closer look

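Opposite movement in the genotypes flagged 14 changes of 13 named members: all 3 KO libraries of the later day lay on the other side of the KO libraries of the earlier day from what Ctrl showed. The difference between the genotypes was not tested, because the Ctrl libraries chose the genes. From d0 to d4, where Ctrl went up, KO changed by -2.16 for Dsp, -2.15 for BC048679, -1.90 for Olig3, -1.23 for Ap3b2, -0.90 for Samd9l and -0.49 for Prex2. From d4 to d6, where Ctrl went down, KO changed by 2.37 for Fgf5, 1.75 for Syt13, 1.47 for Pdlim3, 1.03 for Platr22, 0.95 for Cdh9, 0.82 for Utf1, 0.69 for Dsp and 0.64 for Il17rd. Of these members, Samd9l and Pdlim3 lie on chromosomes 6 and 8, whose median gene shifted between the groups.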

How the results depend on the processing

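Counts of called changes in KO held within 1.5 times of their main values under the alternatives, apart from those given here. A mean TPM of at least 10 left 84 members and gave 58 rises and 5 falls from d0 to d4 and 40 falls after it. Falls from d0 to d4 numbered 18 with quantile normalization and 5 in the fit to the 9 KO libraries. With chromosome medians removed 15 members rose after d4. Among members outside chromosomes 6, 8 and 12 there were 58 rises, 37 later falls and 28 of both, from 98 members. The median change from d0 to d4 was 1.00 and 0.61 with pseudocounts of 0.1 and 5, 0.79 with median-ratio rescaling, 0.67 with quantile normalization, 1.13 with voom, 0.89 with chromosome medians removed, 0.83 outside these chromosomes and 1.07 for the 134 members that passed the filter without Ctrl d4. From d4 to d6 it was -0.33 with a pseudocount of 5. The median of all genes from d0 to d4 went from 0.15 to -0.01 with median-ratio rescaling and to 0.02 with quantile normalization.

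The rule itself took 73 genes with a pseudocount of 5, 84 with a mean TPM of at least 10, 786 with steps of 0.5 and 13 with steps of 2. With quantile normalization it took 155, of which 106 are members. Genes peaking in KO numbered 83 with a pseudocount of 0.1, 23 with 5, 33 with the mean TPM minimum, 359 with steps of 0.5 and 9 with steps of 2. Genes taken in both Ctrl and KO under the same setting numbered 6 with a pseudocount of 5, 11 with the minimum and 11 with quantile normalization. They numbered 149 with steps of 0.5 and 0 with steps of 2. The Ctrl list was chosen anew under each setting, so these are not counts out of the 152 members.

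Leaving out 1 library gave 87 to 99 rises and 5 to 13 falls from d0 to d4, 56 to 72 falls and 7 to 9 rises after it, 40 to 49 members with both, medians of 0.79 to 0.98 and -0.61 to -0.42, 144 to 168 members, 53 to 64 genes peaking in KO and 20 to 23 shared. The falls from d0 to d4 were 6 without KO d0 replicate 1, 5 without replicate 2 or 3 of KO d0, and 6 without replicate 2 or 3 of KO d4. An arm left with 2 libraries shares the spread of all groups.

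Of 76 changes of named genes, 62 kept their direction and their side of the threshold under each of the 28 settings that gave them a value. For 26 changes the genes missed the mean TPM minimum, so that this setting gave none. Over all 2102 values, 61 lost and 6 gained a call and 1 reversed: Slc2a3 from d4 to d6 was 0.29 with chromosome medians removed. The cause of these changes was not tested. Replicate numbers did not pair the KO libraries: deviations of same-numbered libraries correlated at -0.05 to 0.24, and not every library correlated best with its own number. With a replicate block 92 members rose and 8 fell to d4, 63 fell and 9 rose after it, and 46 did both. Of the named changes, the block ended the calls of Prex2 from d0 to d4 (adjusted p = 0.0109) and Halr1 from d4 to d6 (0.0106) and gave one for Cyp2b23 from d0 to d4 (0.00737). Depth limits genes at a few reads, such as BC048679 and Olig3 in KO, and 3 libraries per group limit small changes.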
